A study of Mus musculus with 6 samples.

Results

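The genes that encode RNA polymerase II, the Mediator complex and the transcriptional kinases CDK7, CDK8, CDK9 and CDK19 with their cyclin partners were examined for CDK6 at their promoters. Their members were chosen by symbol: every protein-coding gene of the GENCODE M21 annotation named Med plus a number (30 genes), every gene named Polr2 plus a letter (13 genes), and Cdk7, Cdk8, Cdk9, Cdk19, Ccnc, Ccnh, Ccnt1, Ccnt2 and Mnat1 (9 genes). These are 52 of 21951 protein-coding genes, and the rule uses their symbols alone. The cells were murine BCR-ABL(p185)+ pre/pro B cell lines that carried no endogenous CDK6 (Cdk6-/-) and had been transduced with the HA-tagged wildtype kinase (CDK6-WT, n = 2 libraries) or with the HA-tagged kinase inactive mutant CDK6-K43M (n = 2 libraries). Chromatin was fixed with DSG and formaldehyde and pulled down with an antibody against the HA tag, and 1 list of called peaks per library was analysed. Transduced CDK6 stands in for the endogenous protein in all 4 libraries, and the labels do not say whether the replicates came from separate lines, so the p-values measure only the spread between these libraries. The comparison of the variants asks whether the kinase activity of CDK6 matters for where it sits on chromatin. The 2 input libraries of the series were not analysed here.

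RNA polymerase II transcribes the protein-coding genes, and Mediator carries signals from DNA-bound transcription factors to it. Mediator consists of a head and a middle that touch the polymerase, a tail that many activators contact, the backbone subunit MED14 that joins these parts, and a detachable kinase module with CDK8 or CDK19, cyclin C, MED12 and MED13. The CDK-activating kinase (CDK7, cyclin H and MNAT1) belongs to the general factor TFIIH and phosphorylates the polymerase tail at initiation, whereas P-TEFb (CDK9 with cyclin T1 or T2) releases paused polymerase. CDK6 is best known as a cell-cycle kinase of lymphoid cells, has no DNA-binding domain of its own and reaches chromatin through other proteins.

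A promoter was taken to span 2000 bp upstream and 200 bp downstream of each annotated transcript start, and a gene counted as having a peak when at least 1 bp of a called peak fell there. The lists held 34729 to 39797 peaks. They state no read totals, and a relative depth recovered from the peak values was 9.56 to 12.0 treatment reads per kb. Replicate 1 and replicate 2 libraries stood apart from each other in both variants, and each result is therefore also given by replicate number. Among genes of early B cells, Cd79a, Cd79b, Pax5, Ebf1, Vpreb1, Igll1 and Rag2 had a promoter peak in all 4 lists, and Rag1 had one in the replicate 2 lists alone. None of 11 genes typical of T cells, myeloid and erythroid cells, liver, muscle or neurons had a promoter peak in any list. A promoter peak is a place where tagged CDK6 was recovered, and it is not a measure of expression.

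The strongest peaks of these genes sat on the transcript start. Below are 6 stretches that lie within 100 bp of a strongest summit and touch no annotated exon, read from the GRCm38 (mm10) genome in the direction of transcription. The Med15 stretch precedes an alternative transcript start inside the gene, in a promoter region 10085 bp from the gene start. Polr2j and Med17 were among the 5 genes with the highest peaks, Cdk7 and Cdk8 represent the kinases, and Med15 and Med30 had a peak in the replicate 1 lists and none in the replicate 2 lists. Capitals mark matches to the letters searched (on either strand): GCGCATGCG for NRF-1 in Polr2j and Med15, CCGGAAGT for ETS factors in Med17, CACGTG (the E-box) in Med17, Cdk7 and Cdk8, and CCAAT for NFY in Med30.
Polr2j, chr5:136116527-136116630, plus strand: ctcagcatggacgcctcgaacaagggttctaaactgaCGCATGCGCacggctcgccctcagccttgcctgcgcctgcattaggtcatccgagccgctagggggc
Med17, chr9:15279932-15280025, minus strand: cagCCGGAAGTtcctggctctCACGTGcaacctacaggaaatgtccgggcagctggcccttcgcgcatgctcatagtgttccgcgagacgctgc
Cdk7, chr13:100730940-100731087, minus strand: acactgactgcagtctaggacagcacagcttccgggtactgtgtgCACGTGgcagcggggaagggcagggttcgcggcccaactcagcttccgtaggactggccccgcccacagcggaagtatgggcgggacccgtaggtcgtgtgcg
Cdk8, chr5:146230993-146231193, plus strand: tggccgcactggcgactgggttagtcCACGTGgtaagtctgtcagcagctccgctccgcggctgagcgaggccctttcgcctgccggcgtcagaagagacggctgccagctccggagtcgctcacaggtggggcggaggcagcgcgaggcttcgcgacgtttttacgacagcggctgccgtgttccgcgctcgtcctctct
Med15, chr16:17722948-17722996, minus strand: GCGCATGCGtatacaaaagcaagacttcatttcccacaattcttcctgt
Med30, chr15:52712258-52712407, plus strand: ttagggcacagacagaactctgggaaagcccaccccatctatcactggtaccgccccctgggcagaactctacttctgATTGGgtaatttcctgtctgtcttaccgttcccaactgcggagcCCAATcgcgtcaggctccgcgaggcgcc

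CDK6 was found at the promoters of nearly all Mediator and RNA polymerase II genes. A promoter peak was present for 51 of 52 genes in CDK6-WT replicate 1 (98.1%, 95% Wilson interval 89.9 to 99.7), where 47.2% of all protein-coding genes had one. CDK6-WT replicate 2 had a peak at 44 of 52 (84.6%, 72.5 to 92) against 40.2% of all genes. The CDK6-K43M libraries gave 51 of 52 (98.1%, 89.9 to 99.7) against 48.7% in replicate 1, and 40 of 52 (76.9%, 63.9 to 86.3) against 39.5% in replicate 2. All 4 lists held a promoter peak for 40 of the 52 genes (76.9%), beside 33.3% of all protein-coding genes. A merged promoter region with a peak in at least 3 of the 4 lists, which is how the study defined binding by both variants, was found for 44 (84.6%), beside 41.5% of all genes.

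Most of these genes have CpG-rich promoters, the kind found at broadly expressed genes, and such promoters carried CDK6 peaks more often in general. A promoter was called CpG-rich when the sequence within 500 bp of the gene start had a CpG observed to expected ratio of at least 0.6 and a GC content of at least 50%. This held for 41 of 52 members (78.8%) and for 44.4% of the protein-coding genes. Among 9740 CpG-rich promoters of all genes, 76%, 65.1%, 77.6% and 63.5% had a peak in CDK6-WT replicates 1 and 2 and CDK6-K43M replicates 1 and 2, and 56.2% had one in all 4 lists. Among the CpG-rich members 34 of 41 had a peak in all 4 lists (82.9%), and among the other members 6 of 11. Of these 11, Ccnt1, Cdk19, Med10 and Med15 had peaks at an alternative start only and none at the gene start. Their class therefore does not describe the sequence under their peaks. Whether the share of the members exceeds that of CpG-rich promoters in general was not tested.

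**Figure D1:**
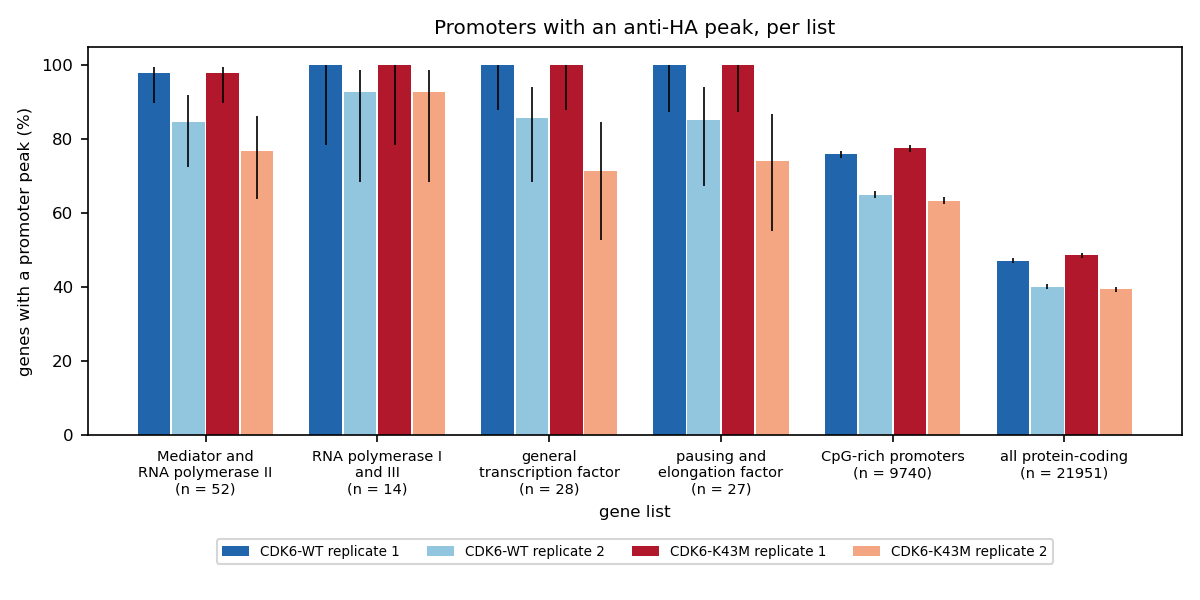
Share of genes with an anti-HA promoter peak (y axis, percent, starting at 0) in each of the 4 lists, for the Mediator and RNA polymerase II genes, 3 other lists of transcription genes, all CpG-rich promoters and all protein-coding genes. Error bars are 95% Wilson intervals. In every list of transcription genes the replicate 2 bars are at or below the replicate 1 bars, and all of these bars lie above those of all protein-coding genes.

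Promoter peaks were also frequent at other genes of the transcription machinery, and the lists were not tested against each other. Of 14 subunit genes of RNA polymerases I and III, which make ribosomal and transfer RNA, 13 had a promoter peak in all 4 lists (92.9%). The same held for 20 of 28 general transcription factor genes (71.4%) and for 20 of 27 pausing and elongation factor genes (74.1%). In both replicate 1 libraries every gene of these 3 lists had a promoter peak.

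The number of genes with a peak did not differ between the variants beyond the spread of the libraries. CDK6-WT libraries had a promoter peak at 47.5 ± 4.95 of the 52 genes (SD, n = 2) and CDK6-K43M libraries at 45.5 ± 7.78 (SD, n = 2), an exact two-sided permutation p of 1.00. With 2 libraries against 2 no p below 0.33 is possible. Within replicate 1 the variants had equal counts, and within replicate 2 CDK6-K43M had 4 fewer. No member had a promoter region unique to CDK6-WT, that is, with a peak in both of its lists and neither of the other variant's (0.223% of all genes). A single member, Polr2f, had a region unique to CDK6-K43M (0.715% of all genes). That region at chr15:79148616-79148842 (mm10) lies 7720 bp into the gene, outside its exons and 1078 bp before an alternative transcript start, and was weak: its peaks had 19 and 10 reads at the summit and stood at percentiles 36.8 and 5.63 of their lists. Polr2f, which encodes a small subunit shared by the nuclear polymerases, had its main promoter region at chr15:79141169-79141771, with 28, 13 and 34 reads in CDK6-WT replicates 1 and 2 and CDK6-K43M replicate 1.

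To compare strength, each gene's strongest promoter peak was ranked among all peaks of its own list by its −log10 q, with 100 for the top of the list. The median percentile over the 40 genes with a peak in all 4 lists was 91.8 in CDK6-WT replicate 1 and 92.2 in CDK6-K43M replicate 1, but 57.4 in CDK6-WT replicate 2 and 53.2 in CDK6-K43M replicate 2. The 7310 protein-coding genes with a promoter peak in all 4 lists had medians of 84.3 and 86.1 in the replicate 1 lists and of 63.4 and 62.8 in the replicate 2 lists. Thus the members stood above the typical promoter in replicate 1 and below it in replicate 2. Between the variants the mean of the library medians was 74.6 ± 24.3 for CDK6-WT and 72.7 ± 27.6 for CDK6-K43M (SD, n = 2 each, exact two-sided permutation p = 1.00). The difference, CDK6-K43M minus CDK6-WT, was 0.34 within replicate 1 and −4.23 within replicate 2.

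**Figure D2:**
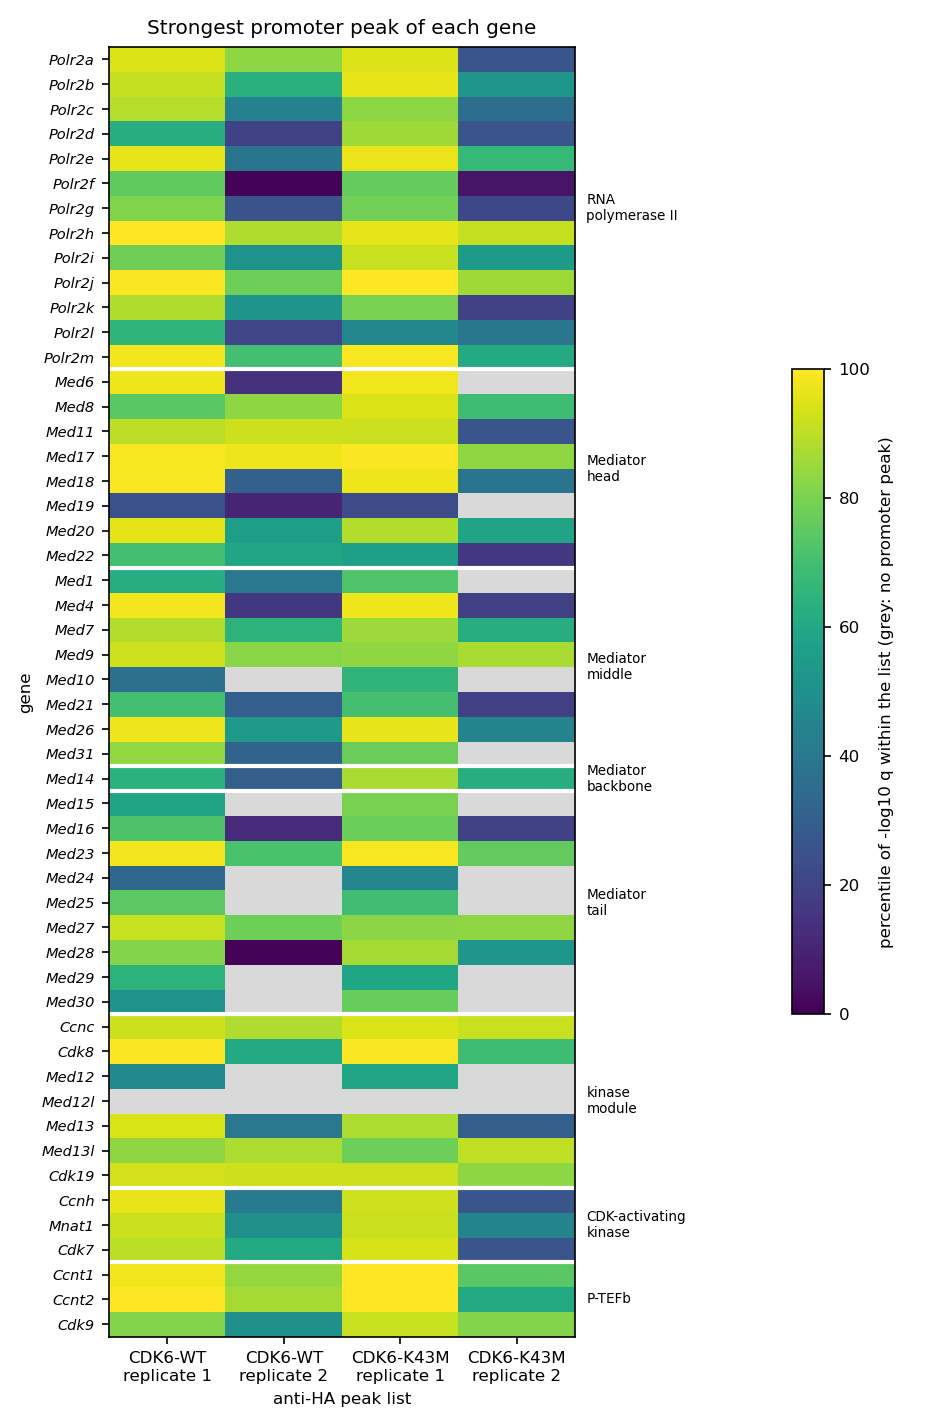
Percentile of the strongest promoter peak of each of the 52 genes (rows, by complex and module) within each of the 4 anti-HA peak lists (columns), as a colour from 0 to 100, where 100 is the highest −log10 q of the list and grey is no promoter peak. The replicate 1 columns are bright for most genes in both variants, the replicate 2 columns are darker, and grey cells other than those of Med12l lie in the replicate 2 columns.

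The reads behind the peaks showed the same division. The number of reads at a summit was recovered from the fold enrichment and p-value of each peak and scaled to the mean depth of the lists. Over the 40 genes the median was 43.4 depth-scaled reads in CDK6-WT replicate 1 and 43.4 in CDK6-K43M replicate 1, against 19.1 and 17.6 in the replicate 2 lists. For all 7310 genes it was 34.5 and 35.9 in replicate 1 and 20.1 and 18.7 in replicate 2. Every one of the 40 genes had more depth-scaled reads in replicate 1 than in replicate 2 of the same variant, with median ratios of 2.20 (range 1.04 to 3.90) for CDK6-WT and 2.56 (1.03 to 4.33) for CDK6-K43M, where all genes had medians of 1.76 and 1.96. Over all genes this order held for 88.3% in CDK6-WT and for 89.4% in CDK6-K43M. Between the variants the median ratio of CDK6-K43M to CDK6-WT was 1.01 in replicate 1 (range 0.72 to 1.81) and 0.93 in replicate 2 (0.38 to 1.44), beside 1.05 and 0.95 over all genes. CDK6-K43M had the higher value for 21 of 40 genes in replicate 1 and for 14 of 40 in replicate 2, beside 58.5% and 42.8% of all genes. The reads are few: the strongest promoter peak of a member had 15 to 72 reads in CDK6-WT replicate 1, 11 to 43 in CDK6-WT replicate 2, 17 to 99 in CDK6-K43M replicate 1 and 10 to 30 in CDK6-K43M replicate 2, where the weakest called peak of a list had 8, 8, 9 and 7.

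**Figure D3:**
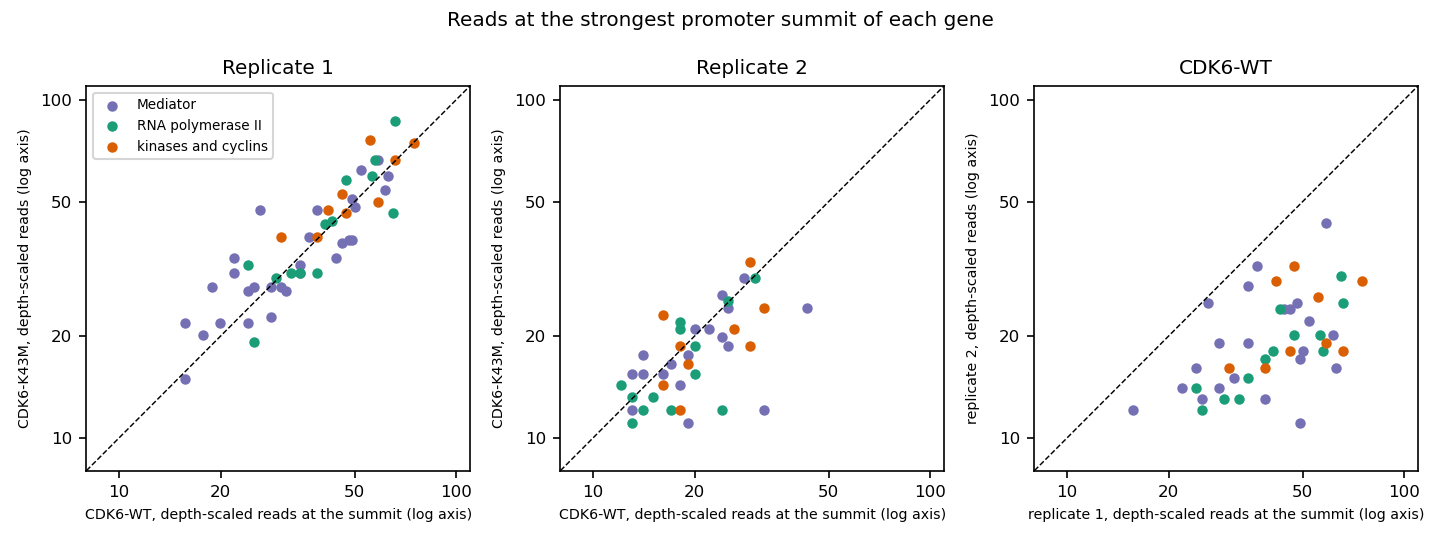
Depth-scaled reads at the strongest promoter summit (log axes, 1 point per gene with a peak in both lists plotted), CDK6-K43M against CDK6-WT in replicate 1 (left) and replicate 2 (middle), and replicate 2 against replicate 1 of CDK6-WT (right). Colours mark Mediator, RNA polymerase II, and kinase and cyclin genes, and the dashed line marks equal values. Points scatter around the line between the variants and lie below it between the CDK6-WT replicates.

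All 13 RNA polymerase II genes had a promoter peak in each list, and 12 had a merged promoter region with a peak in all 4. The exception was Polr2f. Its CDK6-K43M replicate 2 peak (10 reads, percentile 5.63) lay before an alternative start and not at its main region. Their percentiles ran from 62.3 to 99.6 in CDK6-WT replicate 1, from 0.95 to 88.1 in CDK6-WT replicate 2, from 46.8 to just under 100 in CDK6-K43M replicate 1 and from 5.63 to 91.0 in CDK6-K43M replicate 2. For all 13 both replicate 1 values were above both replicate 2 values, although the Polr2f values are not all of the same region. Polr2a encodes the largest, catalytic subunit, whose tail the transcriptional kinases phosphorylate. It had 41 reads in CDK6-WT replicate 1, 24 in CDK6-WT replicate 2, 50 in CDK6-K43M replicate 1 and 11 in CDK6-K43M replicate 2, at percentiles 94.6, 83.0, 94.8 and 26.4. Its mean percentile was lower by 28.2 in CDK6-K43M, and the value of CDK6-K43M replicate 2 alone set it apart (depth-scaled reads, log2 difference −0.48, exact permutation p = 1.00, n = 2 each).

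Polr2h and Polr2j were the strongest of the polymerase genes. Polr2h, for a subunit that all nuclear polymerases share, had 62 and 30 reads in CDK6-WT replicates 1 and 2 and 53 and 27 in CDK6-K43M, at percentiles 99.6, 88.1, 96.3 and 91.0. In CDK6-WT replicate 1 and both CDK6-K43M lists its summit was nearer to another gene's start (3, 21 and 23 bp). That peak cannot be assigned to Polr2h alone. Polr2j, which encodes a partner of the POLR2C subunit in polymerase assembly, had 63 and 25 reads in CDK6-WT and 99 and 23 in CDK6-K43M, at percentiles 99.6, 77.8, 99.96 and 85.8. The 99 reads were the highest value of any member in any list. At the other end stood Polr2f, Polr2l and Polr2d. Polr2l, another shared small subunit, had 24, 12, 22 and 13 reads in CDK6-WT replicates 1 and 2 and CDK6-K43M replicates 1 and 2. Its summits in both CDK6-WT lists and CDK6-K43M replicate 2 were nearer to the start of Tspan4 (33, 57 and 39 bp). These reads cannot be assigned to Polr2l alone. Polr2d, for a subunit of the polymerase stalk, had 23, 14, 37 and 11 reads in CDK6-WT replicates 1 and 2 and CDK6-K43M replicates 1 and 2. Its percentiles were 62.3, 19.6, 85.7 and 26.4.

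Of the 8 head genes of Mediator, 6 had a promoter peak in all 4 lists, and Med6 and Med19 lacked it in CDK6-K43M replicate 2. Med17, which encodes the central scaffold of the head, had the highest mean percentile of all members (94.9), with 56 and 43 reads in CDK6-WT replicates 1 and 2 and 76 and 22 in CDK6-K43M replicates 1 and 2. Med11, a small head subunit, had the most negative difference of mean percentile between the variants (−32.0), again through CDK6-K43M replicate 2: it had 35 and 32 reads in CDK6-WT, 45 in CDK6-K43M replicate 1 and 11 in CDK6-K43M replicate 2. This value depended on the edge of the promoter. The merged region over the promoter, chr11:70451673-70452446, also held a CDK6-K43M replicate 2 peak with 18 reads at percentile 72.7, and with the strongest peaks of that region the difference was −8.84. The CDK6-WT replicate 2 summit lay 287 bp after the transcript start, past the 200 bp limit. Med22 was the single gene with a peak in all 4 lists whose percentiles were higher in both CDK6-WT lists (70.1 and 58.7) than in both CDK6-K43M lists (56.8 and 16.2). This is 1 of 40, where 3.61% of all genes had that order. The Med22 summit of CDK6-WT replicate 2 lay 272 bp after the start, so the gene had a peak in 3 lists when the summit itself had to be in the promoter, and the replicate 1 summits were nearer to the start of Rpl7a (19 and 36 bp). Percentiles higher in both CDK6-K43M lists were found for 0 of 40, beside 6.77% of all genes. Med6 had 47, 11 and 58 reads in CDK6-WT replicates 1 and 2 and CDK6-K43M replicate 1, and Med19, the weakest of the head, had 15, 12 and 17. Each Med19 summit was nearer to the start of another gene. This was Gm28635 in CDK6-WT replicate 1 (262 bp) and Tmx2 in CDK6-WT replicate 2 and CDK6-K43M replicate 1 (51 and 2 bp). These reads cannot be assigned to Med19 alone.

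The middle of Mediator had 8 genes, of which 5 had a promoter peak in each list. Med26, whose product docks elongation factors, had 48 and 18 reads in CDK6-WT replicates 1 and 2 and 55 and 13 in CDK6-K43M. Med1, which encodes the main contact of nuclear receptors, had 23, 16 and 31 reads and no promoter peak in CDK6-K43M replicate 2. Med31 had 30, 15 and 31 reads in the same libraries and also lacked a peak in CDK6-K43M replicate 2. Med21, among the 5 members with the lowest mean percentile (47.4), had 27, 14, 32 and 14 reads. Med10 had 15 reads in CDK6-WT replicate 1 and 25 in CDK6-K43M replicate 1, and no peak in either replicate 2 list. Replicate 1 again held the higher values for each of these genes.

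Med14, the backbone, ranked higher in CDK6-K43M than in CDK6-WT in both replicates. It had 21 and 14 reads in CDK6-WT and 39 and 16 in CDK6-K43M, at percentiles 63.7, 30.2, 87.1 and 62.3. The groups overlapped (CDK6-K43M replicate 2 stood below CDK6-WT replicate 1), and the log2 difference of depth-scaled reads was 0.48 (4.14 ± 0.45 in CDK6-WT and 4.62 ± 0.67 in CDK6-K43M, SD, n = 2 each, exact permutation p = 0.67).

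The tail had the lowest share of genes with a promoter peak in each list among the parts of Mediator, 4 of 9 (44.4%). Med15, Med24, Med25, Med29 and Med30 had one in the replicate 1 list of either variant but were without one in replicate 2, as were Med10 of the middle and Med12 of the kinase module. These 7 of 52 members (13.5%) stand beside 5.69% of all protein-coding genes, and the opposite pattern was found for 0 members, beside 1.28% of all genes. Of all genes 48.1% had no promoter peak in any list and could show neither pattern, against 1 of 52 members. The replicate 1 pattern was found for 7.56% of the CpG-rich promoters and 7.14% of the RNA polymerase I and III genes. It was found for 14.3% of the general transcription factor genes and 14.8% of the pausing and elongation factor genes. Their summits were modest in replicate 1, with 15 to 29 reads in CDK6-WT (median 19, against 41.5 for the members in all 4 lists) and 23 to 35 in CDK6-K43M (median 25, against 49.5). Med15, whose product is contacted by lipid-synthesis activators among others, had 21 reads in CDK6-WT and 35 in CDK6-K43M. Med30 had 18 and 32. The summit nearest to a Med30 transcript start lay 37649 and 37548 bp away in the replicate 2 lists. A missing peak means that no peak was called, not that no reads were there, since the lists hold called peaks alone.

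The remaining tail genes differed widely in strength. Med23, which receives signals from the Ras pathway through ELK1, had 50, 22, 71 and 19 reads in CDK6-WT replicates 1 and 2 and CDK6-K43M replicates 1 and 2. Med16 had 24, 13, 32 and 11, one of the lowest mean percentiles (45.3). Med28 had the most positive difference between the variants (28.1), with 37 and 13 reads in CDK6-WT and 54 and 14 in CDK6-K43M. In the replicate 2 lists its percentile was 0.95 with 13 reads in CDK6-WT and 52.0 with 14 reads in CDK6-K43M. In CDK6-K43M replicate 2 as many as 1938 peaks shared a single q-value at percentile 26.4, and 5 members were among them (Cdk7, Ccnh, Polr2a, Polr2d and Med11).

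In the kinase module 5 of 7 genes had a promoter peak in all 4 lists, and Ccnc and Cdk19 were among the 5 members with the highest mean percentile. Ccnc, which encodes the cyclin of CDK8 and CDK19, had 40 and 29 reads in CDK6-WT and 54 and 30 in CDK6-K43M, at percentiles 92.3, 87.9, 94.4 and 91.6. Cdk19 had 45 and 32 reads in CDK6-WT and 53 and 22 in CDK6-K43M, and all 4 percentiles lay between 83.2 and 93.3. Cdk8, its paralogue, had a larger gap between the replicates, with 63 and 18 reads in CDK6-WT and 76 and 17 in CDK6-K43M. Med13, which tethers the module to the core, had 44, 24, 43 and 18 reads, with summits 795 to 839 bp before the nearest transcript start. Its paralogue Med13l was the 1 member of 40 whose percentiles were higher in both replicate 2 lists (87.8 and 90.5) than in both replicate 1 lists (83.6 and 78.1), an order that 10.1% of all genes had. Its summits spanned 1826 bp, at chr5:118560208 and 118559920 in replicate 1 and at 118561644 and 118561746 in replicate 2. The Med13l values are therefore not of the same summit. Med12, the subunit that activates the kinase, had 19 reads in CDK6-WT replicate 1 and 25 in CDK6-K43M replicate 1. Med12l, its paralogue, was the single member with no promoter peak in any list. The nearest summits to any Med12l transcript start lay 1188, 1070, 1077 and 1069 bp away, downstream and outside the promoter. That start is an alternative one, and the region there, chr3:59257918-59258735, lies 252502 bp into the gene.

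The CDK-activating kinase genes resembled each other in strength. Cdk7 had 44 and 18 reads in CDK6-WT replicates 1 and 2 and 60 and 11 in CDK6-K43M, Ccnh had 56 and 19 and then 57 and 15, and Mnat1, for the assembly factor, had 37 and 16 and then 45 and 13. In replicate 1 their percentiles ran from 90.2 to 96.8 for CDK6-WT and from 92.2 to 94.1 for CDK6-K43M, whereas in replicate 2 they ran from 41.0 to 61.1 and from 26.4 to 44.9. For Ccnh the CDK6-K43M replicate 2 value (26.4) depended on the edge of the promoter. The merged region over its promoter, chr13:85189186-85190198, also held a peak of that list with 14 reads at percentile 52.0. The percentiles of the P-TEFb genes in replicate 2 were 50.1 to 86.7 in CDK6-WT and 61.2 to 81.3 in CDK6-K43M. Ccnt2 had 72 and 29 reads in CDK6-WT and 85 and 17 in CDK6-K43M. Ccnt1, which encodes the main cyclin of CDK9, had 53 and 26 reads in CDK6-WT and 87 and 19 in CDK6-K43M. Cdk9 was the gene of this group with a higher mean percentile in CDK6-K43M (by 20.7): it had 29 and 16 reads in CDK6-WT and 45 and 21 in CDK6-K43M (log2 difference 0.45, exact permutation p = 0.67, n = 2 each). Its strongest peak in CDK6-WT replicate 2 was 1979 bp before a transcript start, whereas the replicate 1 summits lay 2 and 13 bp from one, so these values are not all of the same peak. Among the 24 genes with a peak in all 4 lists that the naming rule selected, the exact permutation p for depth-scaled reads was 0.67 for 12 and 1.00 for 12.

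The summits marked the transcript start closely. The strongest summit of a member lay at a median of 34 bp from the nearest of its own starts, beside 70 bp over all genes with a peak, and 39 of 51 members were within 100 bp (76.5%, beside 60% of all genes). Across the 4 lists the summits of a gene fell within a median span of 79 bp, and for 21 of 40 genes within 100 bp. The exceptions over 500 bp were Cdk9, Med13l, Med22 and Polr2f. A neighbour transcribed in the opposite direction began within 1000 bp upstream of the gene start for 9 members (17.3%, beside 9.44% of all genes). Tmx2, Bysl, Rpl7a and Paf1 were among these neighbours, and starts downstream of the gene start were not counted. A peak at such a shared start cannot be assigned to either gene. Ccnt1 was among the 9, but its summits lay elsewhere, 3091 to 3384 bp from the start of its neighbour. For 4 members (7.84%, beside 12%) the start of another gene was nearer to the strongest summit than any of their own.

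Short motifs were looked for within 100 bp of the strongest summit, on both strands, and none of the strings contains another. The study's text names ETS, SP1, NFY and NRF-1 motifs, and the YY1, GFY and E-box strings were added here. The ETS string CCGGAAGT was present at 11 of 51 members (21.6%), where 8.65% of all 11399 promoters with a peak and 10.2% of the CpG-rich ones held it. These were Med8, Med15, Med17, Med18, Med31, Polr2f, Polr2j, Polr2k, Cdk7, Cdk9 and Ccnt1. The NRF-1 string GCGCATGCG was present at 5 (9.8%, beside 3.75% and 4.57%): Med4, Med15, Polr2b, Polr2i and Polr2j. The NFY string CCAAT was found at 17 (33.3%, beside 25.6% and 26.4%), the SP1 string GGGGCGGGG at 9 (17.6%, beside 12.9% and 15.1%) and the E-box CACGTG at 7 (13.7%, beside 8.37% and 9.07%). The YY1 string AAGATGGC was found at 3 (5.88%, beside 4.74% and 5.25%) and the GFY string ACTACAATT at 0, beside 0.719% of all promoters with a peak. Polr2j held 4 of these 7 strings. The motif shares are descriptions and were not tested, and a match is not a binding site.

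The division by replicate number was reversed at most regions inside the genes, the majority of them in Med12l and Med13l. At the promoters 34 of the 40 members had both replicate 1 percentiles above both replicate 2 percentiles, as did 69.4% of all genes with a peak in all 4 lists. Counted by merged region, this order held for 34 of 43 member promoter regions with a peak in all 4 lists (79.1%). Over all protein-coding genes it held for 62.7% of 7493 such promoter regions. Merged regions within a member gene but outside its promoters were then compared, also by region. Of 26 such regions with a peak in all 4 lists, 18 had the opposite order, both replicate 2 percentiles above both replicate 1 percentiles (69.2%), and 2 had the order seen at promoters (7.69%). Over all protein-coding genes 44.9% and 22.6% of 5154 such regions did so. The 26 regions came from 6 genes. Med12l and Med13l held 20 of them, 13 with the higher percentiles in replicate 2, and the other 4 genes held 6, of which 5 had that order. The median percentiles of the 26 regions were 57.1 and 67.8 in CDK6-WT and CDK6-K43M replicate 1, and 91.6 in both replicate 2 lists. A region bound by both variants was present inside 9 of 52 members (17.3%), beside 17.2% of all genes, and 27 of the 38 regions lay in Med12l and Med13l.

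The highest read number of these regions was in Med27. At chr2:29418007-29421699, 73034 bp into this tail subunit gene, the summit had 119 reads in CDK6-WT replicate 2 and 130 in CDK6-K43M replicate 2, against 28 and 31 in the replicate 1 lists. At the Med27 promoter the reads were 25 and 22 in the replicate 2 lists and 46 and 44 in the replicate 1 lists. The reads of the replicates thus had the opposite order at the promoter and in the gene body of Med27, in both variants. By percentile this held for CDK6-WT, whereas the promoter values of CDK6-K43M were close, 82.5 in replicate 1 and 83.5 in replicate 2. Med13l held 9 regions bound by both variants, among them chr5:118647186-118648105 with 33 and 67 reads in CDK6-WT replicates 1 and 2 and 43 and 78 in CDK6-K43M. Med12l, with no promoter peak, held 18 such regions in its 312.9 kb, 13 of them in all 4 lists. The strongest, chr3:59259079-59261946, had 40 and 88 reads in CDK6-WT and 48 and 94 in CDK6-K43M, and the highest mean percentile of any of these regions (93.6). It lies 2318 bp from the start of P2ry12, a purine receptor gene nested in Med12l, and 4 of the 18 regions lay within 1000 bp of the start of another gene, so they cannot be assigned to Med12l alone. Which step made the replicates differ was not tested.

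**Figure D4:**
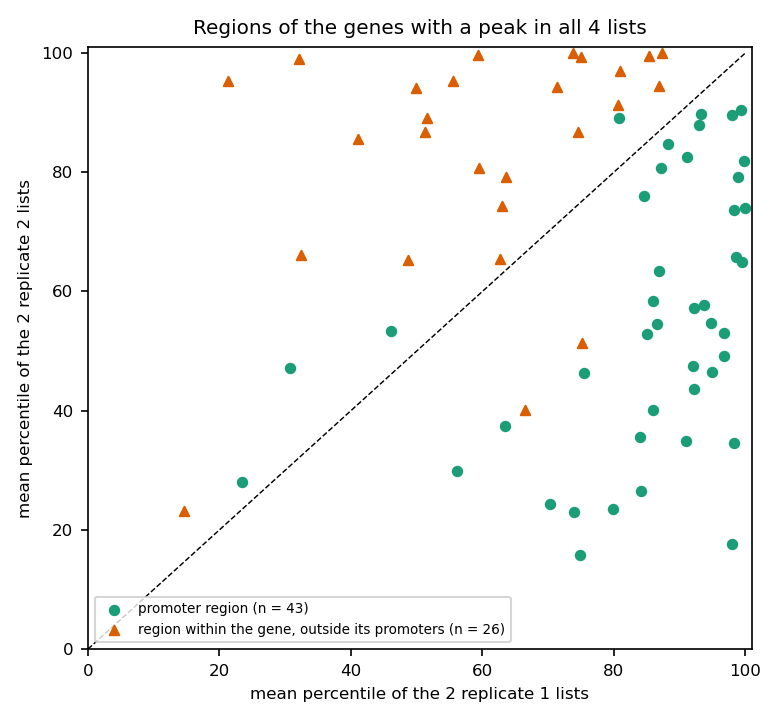
Mean percentile of the 2 replicate 1 lists (x axis) against that of the 2 replicate 2 lists (y axis) for merged regions of the member genes with a peak in all 4 lists. Circles are 43 promoter regions, triangles are 26 regions inside the genes and outside their promoters, and the dashed line marks equal values. Most circles lie below the line and most triangles above it.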

How the data were processed

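The series held 4 anti-HA libraries (CDK6-WT and CDK6-K43M, 2 each), grouped by the variant and replicate number of their titles, and 2 input libraries not analysed here. Per the labels and the study's methods, the authors used FastQC 0.11.5, Trimmomatic 0.36, BWA 0.7.15, bedtools and SAMtools 1.3.1, aligned reads to mm10, discarded multimapping, low-quality and blacklisted alignments, and called peaks per library with MACS2 2.1.0. The deposited peak lists give each peak's fold enrichment (a ratio to the local background), the −log10 of its p-value and of its q-value, a score (10 times the −log10 q, as an integer) and, as other information, the summit offset. The lists start just past a q-value of 0.05, so weaker binding is not in them.

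Peaks were placed on promoters of GENCODE M21 (the authors used M13). Percentiles are average ranks of −log10 q within a list. Peaks of the 4 lists that overlapped were merged into regions. Reads at each summit were recovered from fold enrichment and −log10 p with 1 scale per list, giving whole reads for 100% of peaks within 0.001. The recovery was tested on simulated data. Depth is known in relative terms only. Shares carry 95% Wilson intervals, which cover counting error only. Libraries were compared by exact two-sided permutation tests. Genes were named by a rule: all kinase module, CDK-activating kinase and P-TEFb genes, Polr2a, members lacking a promoter peak in a list or with a variant-unique region, and, among members in all 4 lists, the 5 highest and 5 lowest by mean percentile and the 3 with the largest difference in each direction; the other genes (Med23, Med26, Med27, the genes of the motif and neighbour lists) were chosen after their values were seen. The comparison of promoter with gene-body regions was also added after the data were seen. A few genes of the marker and neighbour lists are not reported here. Members and lists were chosen with earlier results of these data known.

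Same-numbered libraries deviated together (the correlation of their deviations from the variant means over 7310 genes was 0.57, and 0.56 over 40 members), but the labels do not say that a number marks a shared batch. The alternatives tried were peaks with a −log10 q of at least 5 or 10, the top 10000 peaks, a promoter of 500 bp to either side, the gene start alone, summits in place of any overlap, ranking by fold enrichment, a replicate block and leaving out each library. Software versions were matplotlib 3.10.9, pysam 0.24.0, scipy 1.17.1, pandas 2.3.3, numpy 2.4.6 and Python 3.11.15.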

Additional observations from a re-analysis of the deposited data

How the results depend on the processing

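The difference in the number of members with a promoter peak (CDK6-K43M minus CDK6-WT, −2) came to 0 among the top 10000 peaks, was 1.5 without CDK6-WT replicate 1 and 3.5 without CDK6-K43M replicate 2, and ran from −7.5 to 3.5 with each library left out. The difference in median percentile (−1.95) was 0.23 with a promoter of 500 bp to either side, 15.26 without CDK6-WT replicate 1 and 19.89 without CDK6-K43M replicate 2, and ran from −21.44 to 19.89. No alternative gave an exact permutation p below 0.67. With the replicate number as a block the differences were −2 and −1.95, each with a sign-flip p of 1.00, where 0.5 is the smallest that this pairing allows. Members with a peak in all 4 lists (40) numbered 23 at a −log10 q of at least 5 and 10 at a −log10 q of at least 10 or among the top 10000 peaks, and 40 to 44 with a library left out. Promoter regions bound by both (44) numbered 16 at a −log10 q of at least 10 and 15 among the top 10000 peaks, and 39 to 51 with a library left out. With a library left out the rule was looser, because a peak in at least 3 lists could not then give more than 44. The range of 39 to 51 is therefore not of the same measure as the 44. Members with a peak in the replicate 1 lists alone (7) numbered 15 and 30 at the minimum of 5 and 10 and 22 among the top 10000 peaks, and 7 to 11 with a library left out, the 11 without CDK6-WT replicate 2. The stricter lists hold fewer peaks by construction. With the gene start in place of any transcript start, Ccnt1, Cdk19, Med10 and Med15 also had no promoter peak in any list. Reads at the summits limit the comparison: the replicate 2 peaks of members had 10 to 43 reads, and weaker binding was not called.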
